A study of Rattus norvegicus with 24 samples.

Results

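The genes described here move calcium into and out of the endoplasmic reticulum and out of the cell, measured in the CA1 field of the rat hippocampus. They were chosen by name: the ryanodine receptors Ryr2 and Ryr3, the IP3 receptor Itpr1, their binding proteins Fkbp1a and Fkbp1b, the store pump Atp2a2 and the plasma membrane pumps Atp2b1 and Atp2b2. Every probe set whose platform annotation gave 1 of these 8 symbols and no other was taken, which gave 18 of the 31099 probe sets in the table, for 8 of 14218 genes with probe sets of their own. Total RNA of microdissected CA1 tissue from male Long-Evans rats had been hybridised to Affymetrix rat expression arrays, with 1 array for each biological replicate. The aged impaired group (8 arrays) and the aged unimpaired group (6 arrays) were rats of 24 to 26 months, and the young group (9 arrays) were rats of 6 months. No group was treated or genetically altered, and all rats were housed singly and tested in a water maze. The aged groups were defined by behaviour alone: a learning index put the unimpaired rats within the range of the young rats and the impaired rats outside it.

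Neurons keep calcium in the endoplasmic reticulum and release it through ryanodine receptors, which open when cytosolic calcium rises, and through IP3 receptors, which also need inositol trisphosphate. The small FK506-binding proteins sit on these channels and steady their closed state. The pump encoded by Atp2a2 refills the store, and the Atp2b pumps push calcium out across the plasma membrane. Ageing CA1 pyramidal neurons are known for larger calcium transients and a longer afterhyperpolarization, and more release from ryanodine receptors is one of the accounts given for this in rats.

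None of the 8 genes differed between the groups by the test. Median signals of the groups lay close together, and the ranges of the groups overlapped for all 16 probe sets that were bright enough to test. Against young rats, the lowest p belonged to Fkbp1b and a probe set of Fkbp1a, both lower in impaired rats, and to a probe set of Atp2b1, higher in unimpaired rats. Between the aged groups, the lowest p belonged to Atp2b1 and to 1 probe set of Atp2a2, both lower in impaired rats. These differences were at most 0.35 log2 units and failed the correction for the number of probe sets tested.

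Signals are log2 values, so that a difference of 1 unit is a doubling, and probe sets with a signal over 4 in fewer than 6 arrays were not tested. Of the 18 probe sets, 16 passed, each with all 23 arrays over that limit, so none passed through 1 group alone. The fit by limma covered 16173 probe sets, and a probe set was called at a Benjamini-Hochberg adjusted p under 0.05. In aged against young rats 0 of the 16 were called, where 2.32% of all tested probe sets were. In impaired against young rats 0 were called, beside 2.32% of all, and in unimpaired against young rats 0, beside 0.495% of all. In impaired against unimpaired rats 0 were called, as was 0% of all. At an unadjusted p under 0.05 the counts were 1, 2, 3 and 3 of 16 in these comparisons, beside 14.2%, 15.3%, 9.19% and 6.58% of all probe sets. The groups failed to overlap in 0 of 16 probe sets in each comparison, beside 0.111%, 0.352%, 0.569% and 0.216% of all. Probe sets of a gene share their transcript, so the 16 are not independent. The comparisons with young rats share the 9 young arrays.

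**Figure D1:**
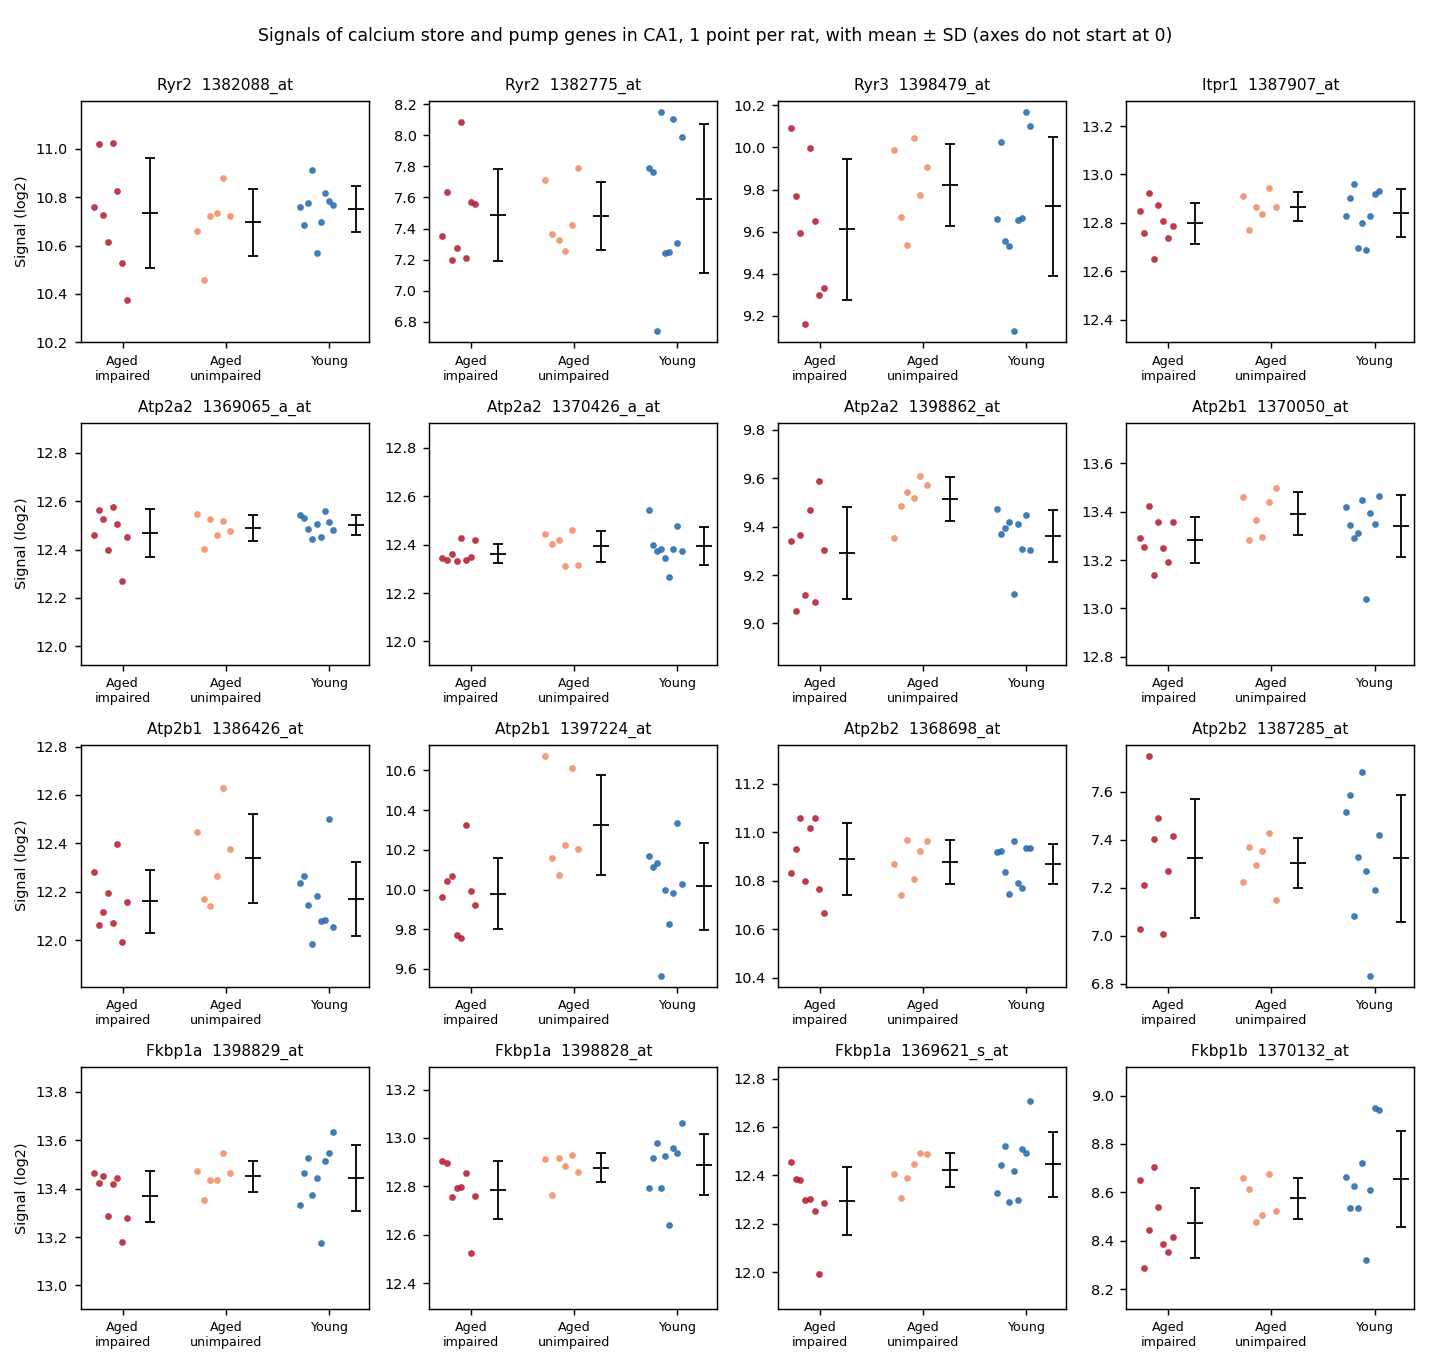
Signal (log2) of each tested probe set in aged impaired, aged unimpaired and young rats, 1 point per array, with the mean ± SD of each group beside the points. The groups overlap in all 16 panels. Each axis spans at least 1 log2 unit and does not start at 0.

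The arrays were alike in scale. The array medians differed by less than 0.1 log2 units, with a highest value of 4.28, and the median correlation of an array with the others lay between 0.987 and 0.992. The 3 lowest correlations were those of impaired replicates 7, 8 and 5. Ranked from low to high over the 23 arrays, impaired arrays held ranks from 1 to 21, young arrays from 4 to 20 and unimpaired arrays from 13 to 23. The 3' minus 5' signal of control probe sets, a measure of RNA quality, ran from 1.15 (impaired replicate 8) to 1.55 (young replicate 3). The part of array quality in the differences between the aged groups was not tested beyond the alternatives below. Markers fixed for CA1 pyramidal cells were measured in 7 of 8 cases, and their mean signal ran from 11.14 to 11.40 in impaired, 11.37 to 11.60 in unimpaired and 11.18 to 11.55 in young arrays. The mean signal of 6 of 7 microglial markers ran from 7.32 to 8.41 in impaired, 7.62 to 8.36 in unimpaired and 6.97 to 7.56 in young arrays, and 3 of the 6 rose with age. The part of cell makeup in the values below was not tested. In whole tissue, fewer cells of a type and less RNA per cell cannot be told apart. No unimpaired replicate 6 is named in the labels, while young replicate 9 has its column among the unimpaired ones. For Ryr3, Fkbp1a and Fkbp1b, values without young replicate 9 are therefore given too.

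Among the release channels, Ryr2 encodes the ryanodine receptor isoform best known from heart and widely present in forebrain neurons. Its brighter probe set, 1382088_at, ran from 10.38 to 11.02 with a median of 10.74 in impaired rats, from 10.46 to 10.88 with a median of 10.72 in unimpaired rats, and from 10.57 to 10.91 with a median of 10.77 in young rats. The groups shared nearly 1 range, with impaired rats at both ends of it. Aged minus young rats gave -0.03 ± 0.07 (SE), with a 95% confidence interval from -0.18 to 0.11 (limma, adjusted p = 0.887). The impaired minus unimpaired difference was 0.04 ± 0.09 (limma, adjusted p = 0.962). The spread within groups was unequal, with an SD of 0.23 (n = 8) in impaired, 0.14 (n = 6) in unimpaired and 0.10 (n = 9) in young rats.

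The second Ryr2 probe set, 1382775_at, was far more variable. Young rats spanned 6.74 to 8.15, wider than impaired rats at 7.20 to 8.09 and unimpaired rats at 7.25 to 7.79. Of the young rats, 5 lay between 7.76 and 8.15 and 4 between 6.74 and 7.31, with none between those sets. Its residual SD of 0.37 exceeded that of 94.3% of all tested probe sets. The aged minus young difference of -0.11 ± 0.15 (SE) therefore has a wide interval, from -0.42 to 0.20 (limma, adjusted p = 0.812). Both Ryr2 probe sets had an aged mean below the young mean, by less than their standard errors.

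Ryr3, the ryanodine receptor first described in brain, was read by the single probe set 1398479_at. Impaired rats ran from 9.16 to 10.09 with a median of 9.62, unimpaired rats from 9.54 to 10.05 with a median of 9.84, and young rats from 9.12 to 10.17 with a median of 9.66. Unimpaired rats were the tightest group and lay inside the range of the young rats. The impaired minus unimpaired difference was -0.21 ± 0.16, with an interval from -0.53 to 0.11 (limma, adjusted p = 0.852). Aged minus young rats gave -0.02 ± 0.12, with an interval from -0.27 to 0.24 (limma, adjusted p = 0.966), and 0.03 without young replicate 9 (limma, adjusted p = 0.957). The difference from young rats was -0.11 ± 0.14 for impaired and 0.10 ± 0.15 for unimpaired rats (limma, adjusted p = 0.773 and 0.922). Single arrays moved both values by over 1.5 times: without young replicate 5 they were -0.18 and 0.03, and without impaired replicate 4 the value for impaired rats was -0.04.

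Itpr1 encodes the main neuronal IP3 receptor, which releases calcium after stimulation of metabotropic glutamate and muscarinic receptors. Its probe set 1387907_at ran from 12.65 to 12.92 in impaired rats (median 12.80), from 12.77 to 12.94 in unimpaired rats (median 12.87) and from 12.69 to 12.96 in young rats (median 12.83). This was among the steadiest signals, with a residual SD of 0.09 that exceeded that of only 10.8% of tested probe sets. The aged minus young difference was -0.01 ± 0.04, with an interval from -0.09 to 0.07 (limma, adjusted p = 0.928). That interval spans a change of -6.36% to 4.94%. Impaired rats averaged lower than unimpaired rats by a difference of -0.07 ± 0.05 (limma, adjusted p = 0.852), and 3 of 8 impaired rats lay below every unimpaired rat.

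Fkbp1b encodes an FK506-binding protein that binds ryanodine receptors in heart and brain, and a decline of it in the ageing rat hippocampus is known from other work. Its probe set 1370132_at ran from 8.29 to 8.70 in impaired rats, with a median of 8.43. Unimpaired rats ran from 8.48 to 8.67 with a median of 8.57, and young rats from 8.32 to 8.95 with a median of 8.62. The group means stood in the order impaired (8.47 ± 0.15, SD, n = 8), unimpaired (8.58 ± 0.08, SD, n = 6) and young (8.66 ± 0.20, SD, n = 9), from low to high. Of the impaired rats, 7 of 8 lay below the young mean, but only 1 lay below every young rat, since young replicate 6 was low at 8.32. Young replicates 8 and 9, at 8.95 and 8.94, stood above all other arrays.

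The aged minus young difference of Fkbp1b was -0.14 ± 0.07, or -9.15%, with an interval from -0.28 to -0.001 (limma, unadjusted p = 0.0485, adjusted p = 0.348). For impaired rats it was -0.18 ± 0.08, or -11.9% (limma, unadjusted p = 0.0242, adjusted p = 0.243), and for unimpaired rats -0.08 ± 0.08 (limma, adjusted p = 0.858). Impaired and unimpaired rats differed by -0.10 ± 0.08 (limma, adjusted p = 0.864), so no pair of groups in that order passed the test. Without young replicate 9 the aged minus young difference was -0.10 (limma, adjusted p = 0.539) and the impaired minus young difference -0.15 (limma, adjusted p = 0.381). Over all alternatives the aged minus young difference ran from -0.18, without young replicate 6, to -0.10, without young replicate 8 (limma, adjusted p from 0.163 to 0.548). In percent, the interval for aged against young rats runs from -17.4% to -0.0689%.

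Fkbp1a, the abundant prototype of the family and the cytosolic target of the drug FK506, was read by 3 probe sets. The suffix of 1369621_s_at marks probes that may also match related transcripts. In that probe set impaired rats ran from 11.99 to 12.45 with a median of 12.30, unimpaired rats from 12.31 to 12.49 with a median of 12.43 and young rats from 12.29 to 12.71 with a median of 12.44. Impaired rats were lower than young rats by a difference of -0.15 ± 0.06 (limma, unadjusted p = 0.0195, adjusted p = 0.218), with 3 of 8 below every young rat. The probe set 1398828_at gave -0.10 ± 0.06 (limma, adjusted p = 0.387) and 1398829_at gave -0.08 ± 0.06 (limma, adjusted p = 0.548) in the same comparison.

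The 3 Fkbp1a probe sets gave the same ordering of the aged groups, impaired below unimpaired, by differences of -0.08 to -0.13 that did not pass (limma, adjusted p from 0.766 to 0.852). Without impaired replicates 5, 7 and 8, whose correlation with the other arrays was lowest, these differences were -0.04 in 1398829_at and 1398828_at and -0.07 in 1369621_s_at. In unimpaired against young rats they lay between -0.02 and 0.01 (limma, adjusted p from 0.963 to 0.995). Impaired replicate 7, which also had the lowest correlation with the other arrays, was the lowest impaired array in all 3, at 13.18 in 1398829_at, 12.53 in 1398828_at and 11.99 in 1369621_s_at. Young replicate 9 was the highest of all arrays in each of them. Without young replicate 9 the impaired minus young difference of 1369621_s_at was -0.12 (limma, adjusted p = 0.350), and without impaired replicates 5, 7 and 8 it was -0.09. In 1398828_at and 1398829_at the same difference without young replicate 9 was -0.08 and -0.05 (limma, adjusted p = 0.550 and 0.723).

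**Figure D2:**
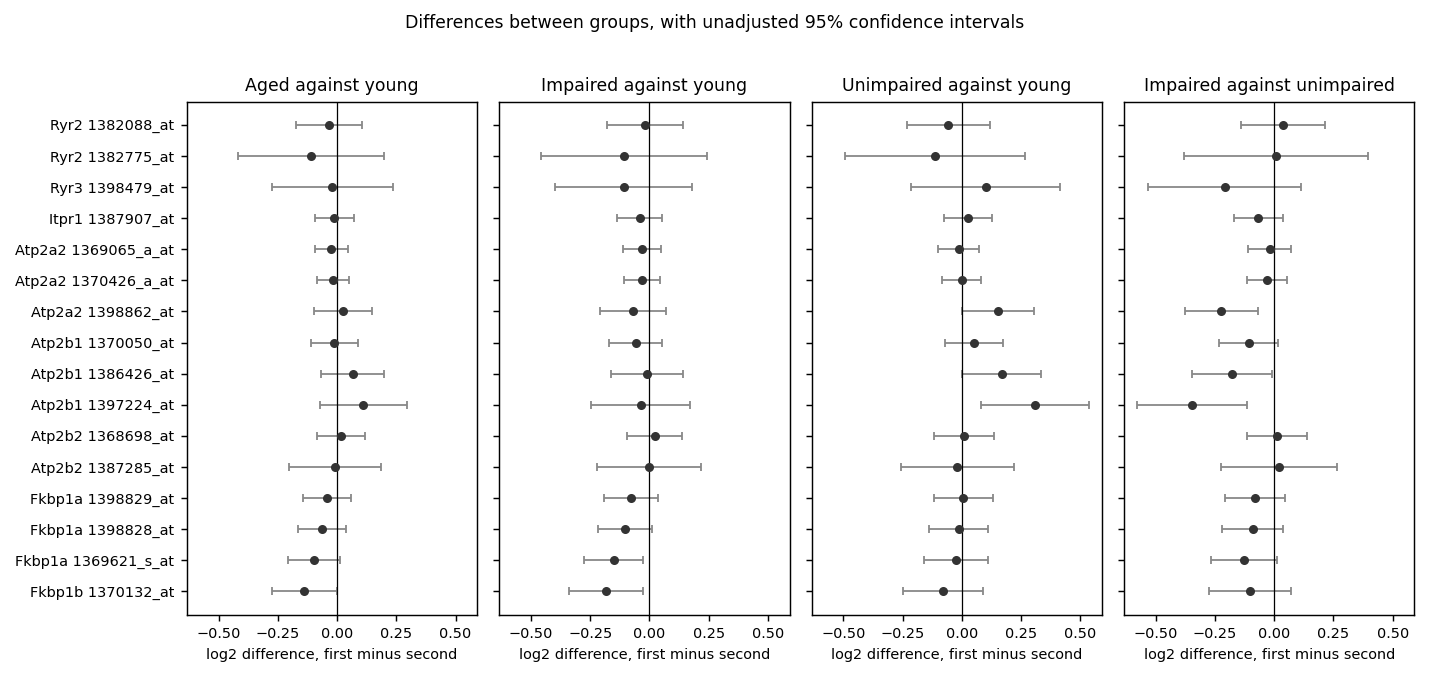
Log2 difference of each tested probe set in the 4 comparisons, first-named group minus second, with unadjusted 95% confidence intervals from limma. Most intervals include 0, and the intervals that do not, for Fkbp1b, Fkbp1a, Atp2b1 and Atp2a2, belong to differences that failed adjustment over 16173 probe sets.

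Atp2a2 encodes the pump that returns calcium to the endoplasmic reticulum in neurons and heart. Its brightest probe sets, 1369065_a_at and 1370426_a_at, carry the suffix for transcript variants of 1 gene and had the smallest residual SD among the 16 tested probe sets. In 1369065_a_at impaired rats ran from 12.27 to 12.58 with a median of 12.48, unimpaired rats from 12.40 to 12.55 with a median of 12.50 and young rats from 12.45 to 12.56 with a median of 12.50. Aged rats minus young rats gave -0.02 ± 0.03 in both probe sets (limma, adjusted p = 0.823 and 0.874). The intervals, from -6.35% to 3.26% in the first and from -5.68% to 3.46% in the other, were the narrowest among the 16 probe sets. Only 4.41% and 3.13% of tested probe sets had a smaller residual SD.

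The third tested Atp2a2 probe set, 1398862_at, was dimmer and more variable. Impaired rats ran from 9.05 to 9.59 with a median of 9.32, unimpaired rats from 9.35 to 9.61 with a median of 9.53 and young rats from 9.12 to 9.47 with a median of 9.39. Of the unimpaired rats, 5 of 6 lay above every young rat, and 5 of 8 impaired rats lay below every unimpaired rat. The difference was 0.15 ± 0.07 for unimpaired minus young (limma, unadjusted p = 0.0471, adjusted p = 0.531) and -0.22 ± 0.07 for impaired minus unimpaired (limma, unadjusted p = 0.00647, adjusted p = 0.570). Between impaired and unimpaired rats the other Atp2a2 probe sets gave -0.02 and -0.03 (limma, adjusted p = 0.960 and 0.937), and the difference between probe sets was not tested. Across the 23 arrays the deviations of 1398862_at from its group means had a Pearson r of -0.31 (Spearman rho -0.03) with 1369065_a_at and of 0.27 (rho 0.45) with 1370426_a_at. The probe sets 1391771_at and 1375164_at stayed below the limit in every array, at 2.88 to 3.38 and 1.25 to 1.30, and were not tested.

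Atp2b1 encodes the most widespread plasma membrane calcium pump. Its dimmest probe set, 1397224_at, gave the largest difference between the aged groups among the 16 tested probe sets of the store and pump genes. Impaired rats ran from 9.75 to 10.32 with a median of 9.98, unimpaired rats from 10.08 to 10.67 with a median of 10.21 and young rats from 9.57 to 10.33 with a median of 10.03. Of the impaired rats, 7 of 8 lay below every unimpaired rat, the exception being impaired replicate 6 at 10.32. The impaired minus unimpaired difference was -0.35 ± 0.11, or -21.3%, with an interval from -0.58 to -0.11 (limma, unadjusted p = 0.00535, adjusted p = 0.570). Over the alternatives it ran from -0.40 to -0.28, with adjusted p from 0.302 to 0.973. The unimpaired minus young difference was 0.31 ± 0.11, or 23.9%, and unimpaired replicates 1 and 5, at 10.67 and 10.62, lay above every young rat (limma, unadjusted p = 0.00983, adjusted p = 0.322).

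The other Atp2b1 probe sets had the same ordering with smaller sizes. In 1386426_at the impaired minus unimpaired difference was -0.18 ± 0.08 (limma, unadjusted p = 0.0397, adjusted p = 0.730), and in 1370050_at it was -0.11 ± 0.06 (limma, adjusted p = 0.790). In unimpaired against young rats the differences were 0.17 ± 0.08 and 0.05 ± 0.06 (limma, adjusted p = 0.531 and 0.888). All aged rats differed from young rats by 0.11 ± 0.09, 0.07 ± 0.06 and -0.01 ± 0.05 in the order 1397224_at, 1386426_at and 1370050_at (limma, adjusted p from 0.634 to 0.947). Impaired and young rats were close in all 3, with differences from -0.06 to -0.01 (limma, adjusted p from 0.663 to 0.965).

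Markers of CA1 pyramidal cells were set beside the comparison of the aged groups. All 7 measured ones had a lower mean in impaired than in unimpaired rats, with differences from -0.36 to -0.03 and a median of -0.20. Of them 5 had an unadjusted p under 0.05, beside 6.58% of all tested probe sets. None passed adjustment (limma, adjusted p from 0.570 to 0.946). Wfs1, a glycoprotein of the endoplasmic reticulum, differed by -0.36 ± 0.13, and the transcription factor Pou3f1 by -0.28 ± 0.09. The lists of markers for other cell types had median differences above 0 between impaired and unimpaired rats, from 0.004 over 4 thalamic markers upward. Those for dentate granule cells and choroid plexus rest on 1 gene each. All longer lists except that of pericytes and smooth muscle held markers on both sides of 0. None of the markers in these lists passed either. The measured dentate granule cell marker, Prox1, differed by 0.67 ± 0.25 (limma, adjusted p = 0.651). The median difference was 0.14 over 5 oligodendrocyte markers, with 2 at an unadjusted p under 0.05. It was 0.02 over 6 markers of inhibitory neurons, likewise with 2, and 0.05 over 6 pan-neuronal markers, with 0. Prox1 also had an unadjusted p under 0.05, as had 1 of 7 CA3 and CA2 markers and 1 of 6 microglial markers. The lists for astrocytes, endothelium, pericytes and smooth muscle, choroid plexus and thalamus had 0. The part of any of these markers in the differences of Atp2b1, Atp2a2 and Fkbp1a was not tested.

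Atp2b2 encodes a fast plasma membrane pump found mainly in neurons and hair cells. Its brighter probe set, 1368698_at, ran from 10.67 to 11.06 with a median of 10.88 in impaired rats, from 10.74 to 10.97 with a median of 10.90 in unimpaired rats and from 10.75 to 10.97 with a median of 10.92 in young rats. For aged minus young rats the difference was 0.02 ± 0.05, with an interval from -0.09 to 0.12 (limma, adjusted p = 0.926). The dimmer 1387285_at ran from 7.01 to 7.75 in impaired, 7.15 to 7.43 in unimpaired and 6.83 to 7.68 in young rats, and its interval for aged minus young was wider, from -0.20 to 0.18 (limma, adjusted p = 0.981). Neither probe set gave a difference over 0.03 in size in any of the 4 comparisons. The lower mean of impaired than of unimpaired rats in Atp2b1, which did not pass adjustment, was not seen in Atp2b2. The difference between the genes was not tested.

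Over the 16 tested probe sets the aged minus young differences ran from -0.14 to 0.11 with a median of -0.02, beside a median of 0.01 over all tested probe sets. Of the 16, 12 lay below 0. In impaired against young rats 15 of 16 lay below 0, with a median of -0.05 beside 0.001 over all. Among the 15, 1387285_at of Atp2b2 differed by -0.0013%, and its sign held in 23 of 33 alternatives. Probe sets of the same gene count separately here, and the shares of all tested probe sets below 0 were not computed. In impaired against unimpaired rats 12 of 16 lay below 0, with a median of -0.09 beside -0.01 over all. In unimpaired against young rats 8 lay below 0 and 8 above, and this balance moved with the scaling, to 10 below 0 with centred arrays and 11 with quantile normalization. The intervals lay wholly within 0.25 log2 units of 0 in 12 of 16 probe sets for aged against young and in 8 of 16 for impaired against unimpaired rats.

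The probe sets differed in how they followed each other from rat to rat. Deviations from the group means over the 23 arrays served as the measure, as a description only, since the arrays share a normalization. The 3 Fkbp1a probe sets were most alike, with Pearson r from 0.85 to 0.90 (Spearman rho from 0.69 to 0.81). The Atp2b1 probe sets 1386426_at and 1397224_at had an r of 0.75 (rho 0.67), while each had an r of 0.23 to 0.31 with 1370050_at. The paired probe sets of Ryr2 and of Atp2b2 were less alike, at r = 0.29 (rho 0.29) and r = 0.25 (rho 0.21). Between different genes the median r was 0.28 over 109 pairs, and the highest was 0.78 (rho 0.82), between Itpr1 and Fkbp1a 1398829_at. The leading Fkbp1a probe set and Fkbp1b had an r of 0.55 (rho 0.49).

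**Figure D3:**
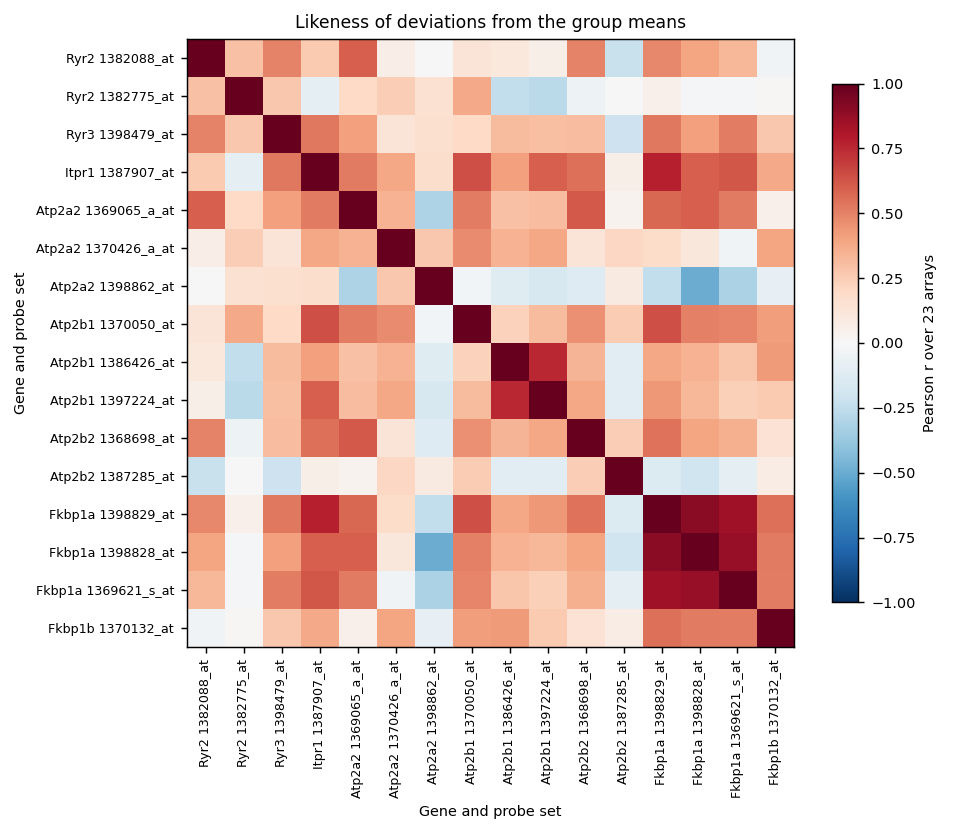
Pearson r between the 16 tested probe sets over 23 arrays, computed on deviations from the group means. The block of the 3 Fkbp1a probe sets, at 0.85 to 0.90, stands out, and 1398862_at of Atp2a2 has negative values with all 3, from -0.50 to -0.24. The Spearman rho of those pairs, not drawn, was weaker, at -0.07 with 1398829_at, -0.42 with 1398828_at and -0.11 with 1369621_s_at. Impaired replicate 7 was the lowest impaired array in all 3 and the highest in 1398862_at.

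The genes whose deviations were most like those of each gene were found over all tested probe sets with 1 symbol, each gene being read by its brightest probe set. These are the highest of a great many r values, and no background of such highest values was computed, so shared control was not tested. For Fkbp1b these were Hyou1, a chaperone of the endoplasmic reticulum (r = 0.79, rho 0.78), and Pggt1b (r = 0.75, rho 0.61). Fkbp1a was most like Actr2, a subunit of an actin-nucleating complex (r = 0.90, rho 0.93), and Ppp3cb, a catalytic subunit of calcineurin (r = 0.87, rho 0.86). Itpr1 was most like Wasf1 (r = 0.84, rho 0.87) and the postsynaptic protein Anks1b (r = 0.84, rho 0.82). The Atp2b1 probe set 1370050_at, which had little likeness to the others of its gene, was most like the postsynaptic scaffold gene Dlgap1 (r = 0.87, rho 0.85) and Abi1 (r = 0.86, rho 0.75). Ryr2 was most like the casein kinase subunit Csnk2a1 (r = 0.91, rho 0.84) and P4htm (r = 0.86, rho 0.86). Ryr3 was most like the synaptic gene Prrt2 (r = 0.80, rho 0.81) and Snn (r = 0.80, rho 0.87). Atp2a2 was most like the sorting receptor Sort1 (r = 0.87, rho 0.72) and the tubulin Tuba4a (r = 0.82, rho 0.69). Atp2b2 was most like the translation factor Eif5a (r = 0.82, rho 0.77) and Cracdl (r = 0.81, rho 0.81). None of these 16 genes passed the test in aged against young rats (limma, adjusted p from 0.235 to 0.999).

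Other genes of calcium storage, clearance and buffering were read in 8 lists of 100 genes, of which 76 were measured, each by its brightest tested probe set. None of the 76 passed in any comparison by limma. Unadjusted p-values under 0.05 were found for 12 in aged against young, 12 in impaired against young, 2 in unimpaired against young and 9 in impaired against unimpaired rats. These counts stand against the shares of all probe sets given above. The median difference of the 76 was 0.0135 in aged against young rats, beside 0.00559 over all tested probe sets.

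Among 12 measured partners of the release channels the median aged minus young difference was 0.02. Homer1, a scaffold that ties metabotropic glutamate receptors to IP3 and ryanodine receptors, averaged 10.12 in impaired, 10.32 in unimpaired and 10.39 in young rats. Its impaired minus young difference of -0.27 ± 0.07 came nearest the threshold of all 76 genes (limma, adjusted p = 0.0527). Each of the 23 arrays was left out in turn. The difference passed only without impaired replicate 1 or 5 or young replicate 4 or 6 (limma, adjusted p from 0.0128 to 0.0490), and failed in the other leave-outs. In aged against young rats the difference was -0.18 ± 0.06 (limma, adjusted p = 0.167). Among the leave-outs it passed only without young replicate 6, at -0.22 (limma, adjusted p = 0.0482). Trdn, which anchors ryanodine receptors in muscle, lay near the limit for dim probe sets at 4.17 in aged and 4.32 in young rats. Homer3 was higher in impaired than in unimpaired rats by 0.33 ± 0.15 (limma, adjusted p = 0.722).

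Of 9 measured proteins of the store lumen, Hspa5, the chief chaperone of the endoplasmic reticulum and a calcium binder, averaged 11.87 in impaired, 12.10 in unimpaired and 12.11 in young rats. The impaired minus young difference was -0.24 ± 0.07 (limma, adjusted p = 0.0648) and the impaired minus unimpaired difference -0.23 ± 0.08 (limma, adjusted p = 0.570), with 7 of 8 impaired rats below every unimpaired rat. Of the 23 leave-outs of 1 array, impaired against young passed only without impaired replicate 2 or young replicate 1, 5 or 7 (limma, adjusted p from 0.0252 to 0.0436). Calreticulin, Calr, the main calcium buffer of the lumen, differed by -0.10 ± 0.04 in aged against young rats (limma, adjusted p = 0.310). Rcn2 differed by 0.06 ± 0.05 in impaired against unimpaired rats (limma, adjusted p = 0.852).

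Of 8 other pumps, exchangers and pump regulators, all had a lower mean in aged than in young rats, from -0.61 to -0.003 with a median of -0.03, and none passed. The differences of Slc24a2, Nptn, Atp2b3, Bsg and Slc8a1 were smaller than their standard errors. Slc24a4, a potassium-dependent sodium-calcium exchanger, gave the largest size, at 4.43 in aged and 5.04 in young rats, a difference of -0.61 ± 0.20 (limma, adjusted p = 0.124). In impaired against young rats it was -0.76 ± 0.23 (limma, adjusted p = 0.0778). Of the 23 leave-outs of 1 array, it passed only without impaired replicate 4 or young replicate 2 (limma, adjusted p = 0.0269 and 0.0446). These signals lie near the limit of 4, so the size is uncertain. The Golgi calcium pump gene Atp2c1 differed by -0.12 ± 0.08 in aged against young rats (limma, adjusted p = 0.488), and Bsg by 0.06 ± 0.04 in impaired against unimpaired rats (limma, adjusted p = 0.857).

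Store-operated entry was read through 8 genes. Trpc4, a cation channel subunit, averaged 8.79 in impaired, 9.06 in unimpaired and 9.13 in young rats, and its impaired minus young difference was -0.34 ± 0.10 (limma, adjusted p = 0.0686). Orai1, a pore subunit of the store-operated channel, differed by 0.08 ± 0.03 in aged against young rats (limma, adjusted p = 0.289), and the store sensor Stim1 by 0.13 ± 0.09 in impaired against unimpaired rats (limma, adjusted p = 0.852). Mitochondrial uptake was read through 9 genes, with aged minus young differences from -0.05 to 0.06. The outer membrane channel Vdac2 differed by 0.06 ± 0.03 (limma, adjusted p = 0.269) and the uptake regulator Micu3 by 0.06 ± 0.04 (limma, adjusted p = 0.574). Between the aged groups Vdac1 differed by 0.07 ± 0.05 and Micu2 by 0.05 ± 0.05 (limma, adjusted p = 0.858 and 0.914).

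Of 12 genes of IP3 production and breakdown, Itpka, the kinase that converts IP3 in CA1 dendrites, differed by -0.22 ± 0.08 in impaired against unimpaired rats (limma, adjusted p = 0.660). It also stands among the CA1 markers above. Inpp1 and Inpp5a differed by 0.10 ± 0.08 and -0.08 ± 0.08 in aged against young rats, and the muscarinic receptor gene Chrm1 by 0.10 ± 0.07 in impaired against unimpaired rats (limma, adjusted p from 0.641 to 0.836). The 7 other FK506-binding proteins lay between -0.06 and 0.12 in aged against young rats. Fkbp5, the glucocorticoid-induced member, differed by 0.12 ± 0.09 and Fkbp8 by 0.06 ± 0.05 (limma, adjusted p = 0.617 and 0.588). Between the aged groups Fkbp8 differed by 0.11 ± 0.06 and Fkbp4 by -0.11 ± 0.06 (limma, adjusted p = 0.758 for both).

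Among 11 cytosolic buffers and sensors, parvalbumin, Pvalb, a buffer of fast-spiking interneurons, differed by 0.12 ± 0.04 and S100a1 by 0.14 ± 0.05 in aged against young rats (limma, adjusted p = 0.181 and 0.221). Hpcal1, a calcium sensor named after its values were seen, averaged 8.72 in impaired, 8.16 in unimpaired and 8.09 in young rats. Its impaired minus young difference was 0.63 ± 0.20 (limma, adjusted p = 0.0951). Of the 23 leave-outs of 1 array, it passed only without young replicate 4 (limma, adjusted p = 0.0310). Vsnl1, another neuronal calcium sensor, was higher in impaired than in unimpaired rats by 0.13 ± 0.04, with 5 of 8 impaired rats above every unimpaired rat (limma, adjusted p = 0.570). The sensor Ncald was higher by 0.35 ± 0.13, with 7 of 8 above (limma, adjusted p = 0.660).

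**Figure D4:**
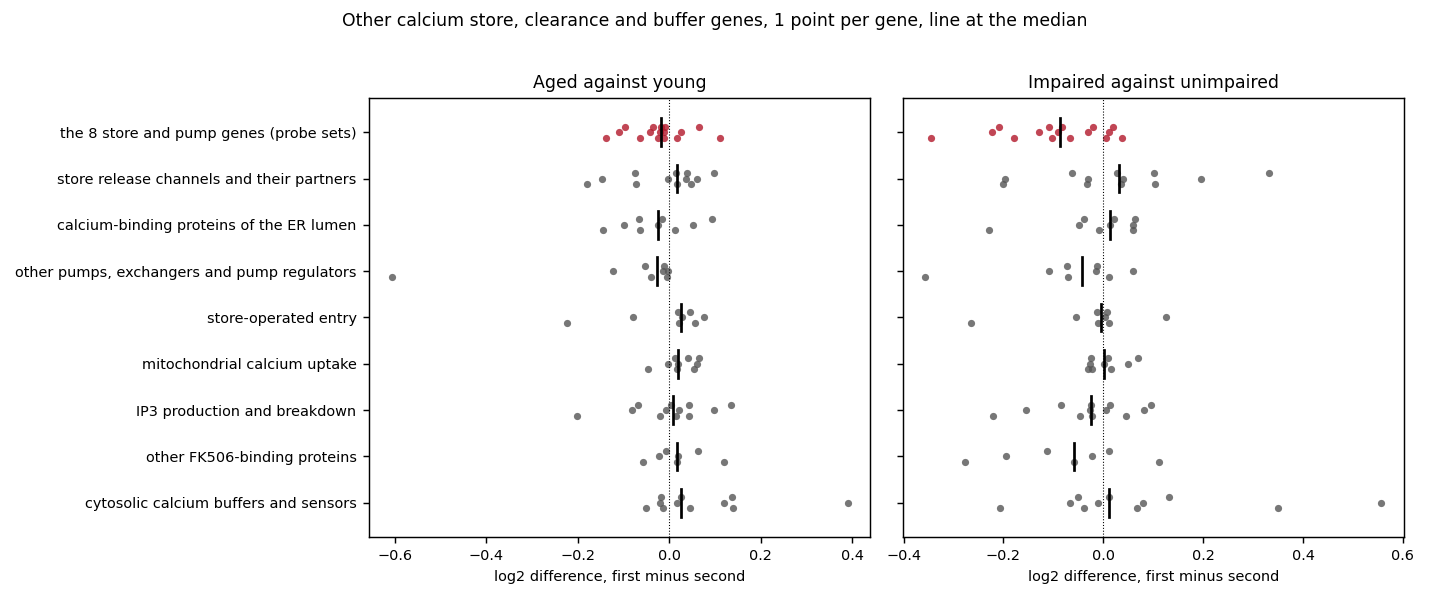
Log2 differences of the 16 tested probe sets of the store and pump genes and of the 76 measured genes in 8 related lists, for aged against young rats and impaired against unimpaired rats, first-named group minus second. Each point is a probe set or gene and each line a median. The medians lie between -0.09 and 0.03, and the widest points are Slc24a4 at -0.61 on the left and Hpcal1 at 0.56 on the right.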

How the data were processed

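RNA signals of 23 arrays were analysed: 8 from aged impaired, 6 from aged unimpaired and 9 from young rats, grouped by the labels. The deposited table holds log2 signals. GCRMA is named in the submitters' processing notes as the authors' software; its version and settings are not given in the sources used here. They were used as deposited. Of 24 sample columns, 1 was blank, that of an unimpaired array omitted by the submitters after quality control. Of the probe sets, 20832 carried 1 symbol in the platform annotation, 436 several and 9831 none; the 8 symbols also stand in RefSeq. After 57 control probe sets were left out, 16173 that exceeded 4 (log2) on 6 or more arrays were fitted with limma 3.58.1 in R 4.3.3, as group means over 3 groups. Moderated p-values were adjusted by Benjamini-Hochberg separately for the 4 comparisons. The aged mean weighted both aged groups by their arrays. The number of arrays limits the precision, with a median standard error of 0.0639 when aged rats were set against young rats and 0.0808 between the aged groups. The code was tested on simulated data.

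The genes and lists were chosen with earlier results of these data known. Named genes were all 8 members with every probe set, in each related list the called genes and the genes with the lowest p in aged against young and in impaired against unimpaired rats, and for each member the genes of highest Pearson r. Probe and protein sequences were not used here. Alternatives covered the filter, probe set choice, scaling, weights, moderation, RNA quality, a replicate block, the arrays in the fit and each array left out. No processing batch was given in the labels, so none was modelled. Python 3.11.15 and matplotlib 3.10.9 drew the figures.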

Additional observations from a re-analysis of the deposited data

Results flagged for a closer look

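Of 48 groups of values tested for an array far from the rest (16 probe sets in 3 groups), 4 held one, where chance gives about 2.4. In Fkbp1a, impaired replicate 7 lay at 12.53 in 1398828_at, where the next impaired array stood at 12.75, and at 11.99 in 1369621_s_at, where the next stood at 12.25. These probe sets read 1 transcript, and the same array had the lowest correlation with the other arrays, at 0.987. In young rats, replicate 5 lay at 9.12 in 1398862_at of Atp2a2, where the next stood at 9.30, and replicate 6 lay at 13.04 in 1370050_at of Atp2b1, where the next stood at 13.29. Their part in the group differences was not tested beyond leaving each out.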

How the results depend on the processing

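None of the store and pump probe sets was called in any of the 4 comparisons under any alternative that covered it (limma, adjusted p of 0.0984 or more). There were 35 for the brightest probe set of each gene, 12 of them other settings and 23 leaving out 1 array, and 33 for the other 8 probe sets, which have no value of their own where a gene has 1 value. Leaving out 1 array gave 0 to 0 called. Of 2176 alternative differences, 2067 kept their sign, and the 109 that changed it had a main size of at most 0.038. The calls over all probe sets moved more. With the replicate number as a block there were 164 in aged, 157 in impaired and 23 in unimpaired rats set against young rats, in place of 375, 375 and 80. Of 20 same-numbered pairs of arrays only 1 correlated over 0.1, and their median r was -0.042 beside 0.015 in other pairs. The labels do not say whether the replicate numbers pair rats across the groups, and this was not tested further. Without impaired replicates 5, 7 and 8, impaired against young gave 240. For unimpaired against young, array weights gave 181 and no filter 47. Leaving out 1 array gave 255 to 442 for aged against young, 270 to 501 for impaired against young, 33 to 92 for unimpaired against young and 0 to 0 for impaired against unimpaired. The low counts for unimpaired against young were 44, 50, 33 and 51, without unimpaired replicates 2, 3, 4 and 5. The causes were not tested. With centred arrays more calls were lower: 306 higher and 138 lower (68.9% higher) in aged rats, in place of 307 and 68 (81.9%), 353 and 177 (66.6%) in impaired rats, in place of 294 and 81 (78.4%), and 57 and 20 (74%) in unimpaired rats, in place of 67 and 13 (83.8%). Quantile normalization gave 70.9%, 66.7% and 75.6% higher. Leaving out 1 array called 0 to 1 of the related calcium genes for aged against young and 0 to 2 for impaired against young. Probe sets with weak or variable signal, such as 1382775_at of Ryr2, leave wide intervals.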
